A study of Homo sapiens with 6 samples.

Results

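The genes of the Wnt/beta-catenin pathway were followed by RNA sequencing in SKOV3 cells, a long-established line from a human ovarian carcinoma. The 42 genes were chosen by name, with earlier results of these data known, so shares called among them are description only. They are ligands, receptors, dishevelled proteins, the destruction complex with its partner GSKIP, TCF/LEF factors and target genes. All 42 symbols matched 1 Ensembl gene each among the 60664 genes of the deposited table. Cells of the knockdown group carried a short hairpin RNA against JUP (shJUP 1 to 3), and cells of the control group carried the control hairpin shNC (shNC 1 to 3, genotype given as WT). The labels describe the 3 cultures of each group as independent biological replicates of 1 cell line. They do not give the hairpin sequences, the time after knockdown, or whether cells were cloned. Lower JUP and any other action of the shJUP hairpin cannot be told apart in this design.

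JUP encodes plakoglobin (gamma-catenin), a junction protein and close relative of beta-catenin. In canonical Wnt signalling, ligands bind a frizzled receptor together with LRP5 or LRP6, and dishevelled proteins then inhibit a destruction complex of axin, APC, GSK3 and casein kinase 1. Beta-catenin that escapes this complex enters the nucleus and activates targets with TCF/LEF factors, and several of those targets (AXIN2, NKD1, RNF43, ZNRF3, NOTUM) restrain the pathway in turn. Signalling acts largely through the stability of beta-catenin protein, and only transcript levels were measured here.

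Library totals ranged from 17456121 to 19279514 estimated counts. JUP itself stood at 39.9, 93.6 and 24.6 CPM (estimated counts scaled to the size of the library) in shJUP 1, 2 and 3, against 104, 133 and 101 CPM in shNC 1, 2 and 3. It was therefore lower in every shJUP library, but shJUP 2 kept most of its level (log2 fold change -1.10, SE 0.44, edgeR adjusted p = 0.47). Without shJUP 2 and shNC 2 the log2 fold change of JUP was -1.66 (SE 0.22, edgeR adjusted p = 0.051). The deviations of same-numbered libraries correlated at 0.14, 0.51 and 0.20 for numbers 1, 2 and 3. Number 2 had the highest value, and its libraries correlated negatively with those of the other numbers (-0.44 to -0.19). Deviations from a group mean cancel within the group. The 0.51 therefore makes values of number 2 with the other numbers negative on balance, and it raises those among numbers 1 and 3. Numbers 1 and 3 also correlated across numbers, at 0.39 for shJUP 3 with shNC 1 and 0.15 for shJUP 1 with shNC 3. Numbers 1 and 3 are therefore not shown to be pairs. Over all tested genes, both number-2 libraries lay outside the range of the other 4 for 36.4%. For some genes the value without both number-2 libraries is given beside the main value. Genes without a second value were not all steady. TNFRSF19 went from a log2 fold change of 0.20 to 0.41, and TCF7 from 0.16 to 0.33, both in edgeR. The keratins KRT7, KRT8, KRT18 and KRT19, ERBB2 and the ovarian lineage factor PAX8 were all expressed, whereas MUC16 and MSLN stayed under 1 CPM in every library. EPCAM (1.25 to 4.62 CPM) and WT1 (1.55 to 3.61 CPM) of the same list were low. Of the leukocyte markers only CD68 reached 1 CPM in any library. Of 4 endothelial markers 3 did, with KDR highest at 5.06 to 10.8 CPM.

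Of the 42 genes, 35 passed the filter on low counts and were tested. The edgeR quasi-likelihood test, adjusted over all 15867 genes tested, called 0 of the 35, and it called 0 of all genes (0%). At an unadjusted edgeR p under 0.05 there were 3 of 35, GSKIP and BAMBI higher and DVL3 lower in shJUP, or 8.57% against a background of 10% of all tested genes (5.17% higher and 4.87% lower). DESeq2 called 2 of the 34 to which it gave an adjusted p, GSKIP and BAMBI, both higher, against a background of 1.56% (0.841% higher and 0.719% lower). limma-voom called 0 of the 35. The median log2 fold change of the 35 genes was 0.00, with 18 above 0 and 17 below, and over all tested genes it was -0.01. Their median absolute log2 fold change was 0.21, against 0.19 over all tested genes. For 28 of the 35 the absolute log2 fold change was under 0.3, and for 19 it was no larger than its own standard error. The libraries of both groups did not overlap for 9 of the 35, 6 higher and 3 lower in shJUP. That is 25.7%, where the background over all tested genes was 17% (8.39% higher and 8.65% lower).

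**Figure D1:**
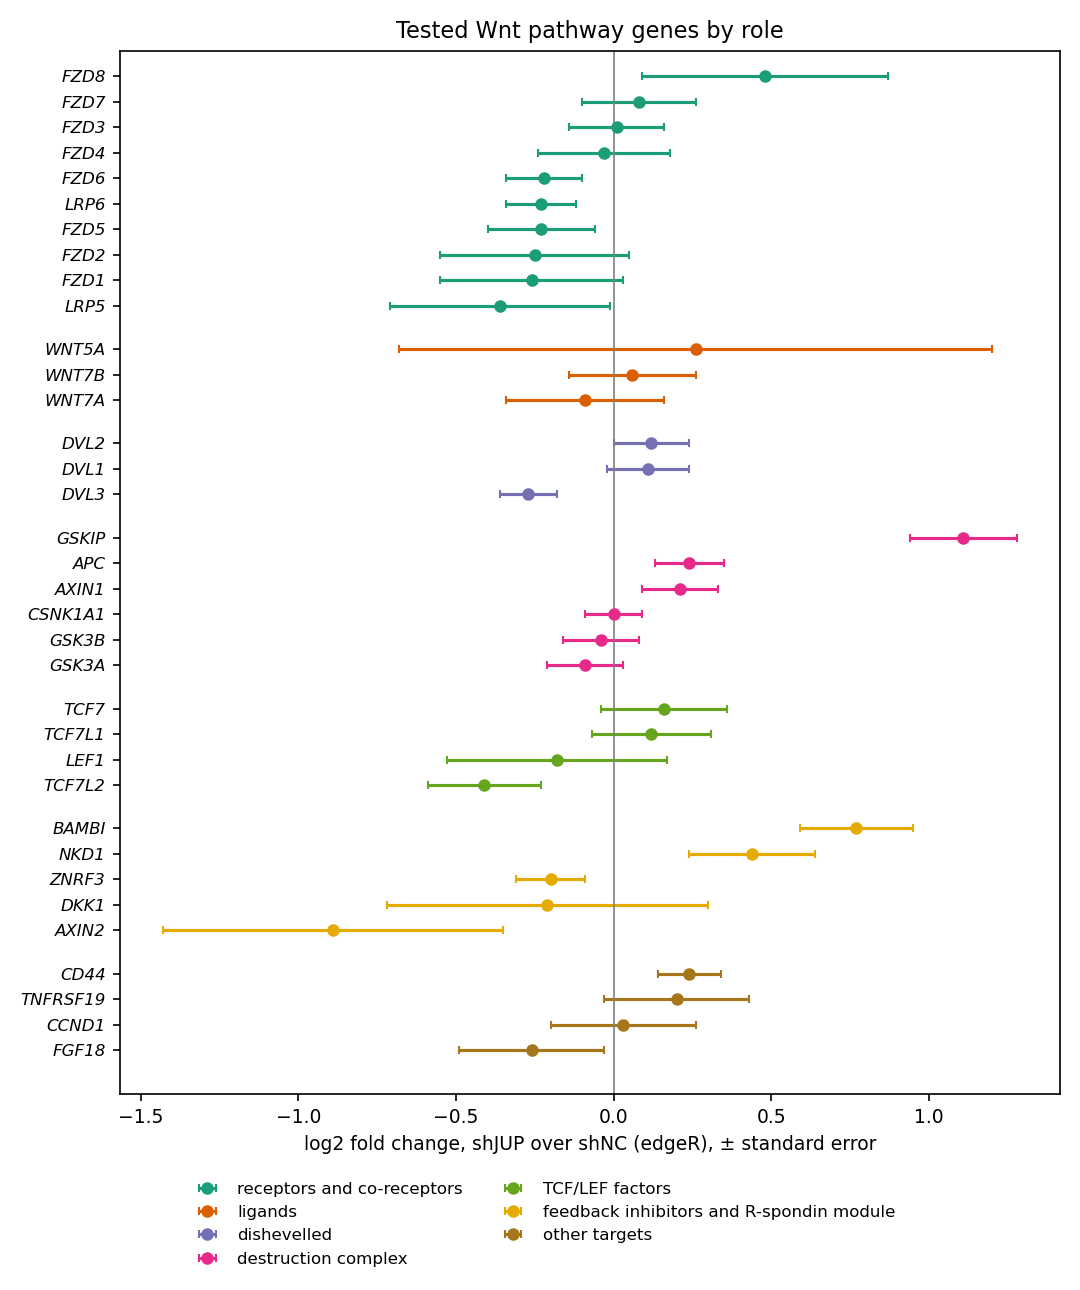
Log2 fold change of shJUP over shNC (horizontal axis, edgeR, bars are ± 1 standard error) for the 35 tested genes, grouped by role. GSKIP at 1.11 and BAMBI at 0.77 lie highest, AXIN2 at -0.89 lies lowest with a wide bar, and most other genes lie within 0.3 of 0.

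GSKIP (ENSG00000100744) encodes a small protein that binds GSK3B and the regulatory subunit of protein kinase A, and it showed the largest difference among the 35. Its level was 50, 40.5 and 48.1 CPM in shJUP 1, 2 and 3, against 17.9, 25.7 and 20.7 CPM in shNC 1, 2 and 3. The groups did not overlap, and the smallest gap was between the number-2 libraries. GSKIP averaged 46.2 ± 5.0 CPM in shJUP and 21.4 ± 4.0 CPM in shNC (mean ± SD, n = 3 per group). Its log2 fold change was 1.11 (SE 0.17, edgeR adjusted p = 0.32). DESeq2 gave an adjusted p of 1.4e-05, and 1.1e-05 with the number as a block. Within numbers 1, 2 and 3 the shJUP level was 2.80, 1.57 and 2.32 times the shNC level. Without both number-2 libraries the log2 fold change was 1.36, past the threshold with edgeR (adjusted p = 0.042) and with DESeq2 (1.8e-10). In that edgeR fit GSKIP was the 1 gene called among the 35 (2.86%, where 0.308% of all genes tested were called). In the DESeq2 fit it was the 1 called of 34 (2.94%, background 5.16%, of which 2.41% higher and 2.75% lower).

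GSKIP has a head-to-head neighbour, ATG2B, an autophagy gene on the opposite strand. In RefSeq (GRCh38.p14) the annotated first start of GSKIP lies 185 bases from that of ATG2B, so 284 of the 300 bases around it are also in the ATG2B promoter window. ATG2B was at 66.1, 66.1 and 66.5 CPM in shJUP 1, 2 and 3, against 74.6, 78.9 and 68.1 CPM in shNC 1, 2 and 3. It differed from its neighbour in direction and did not pass (log2 -0.16, SE 0.10, edgeR adjusted p = 0.62). In GENCODE 29 the exons of ATG2B cover 9.2% of the exon bases of GSKIP, and since the strand setting of the counting is not known, reads in that stretch cannot be told apart.

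Promoter windows (250 bases before to 50 after an annotated start) are shown for the 2 genes that DESeq2 called, with both starts of GSKIP. SP5 is also shown, a target whose window holds the TCF/LEF core most often among the 29 genes for which a window was available. AXIN2 and NKD1 were not among those 29. Capitals mark CTTTGA or CTTTGT on either strand (also read as TCAAAG or ACAAAG), and all sequences are from RefSeq, written 5′ to 3′ along the gene.
GSKIP first start, chr14:96363276-96363575, plus strand: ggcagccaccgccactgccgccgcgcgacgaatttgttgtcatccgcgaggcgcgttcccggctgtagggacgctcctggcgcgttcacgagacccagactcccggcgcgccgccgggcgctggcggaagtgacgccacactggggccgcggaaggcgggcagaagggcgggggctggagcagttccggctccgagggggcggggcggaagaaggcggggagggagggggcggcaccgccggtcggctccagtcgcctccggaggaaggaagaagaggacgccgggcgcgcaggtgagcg
GSKIP second start, chr14:96364486-96364785, plus strand: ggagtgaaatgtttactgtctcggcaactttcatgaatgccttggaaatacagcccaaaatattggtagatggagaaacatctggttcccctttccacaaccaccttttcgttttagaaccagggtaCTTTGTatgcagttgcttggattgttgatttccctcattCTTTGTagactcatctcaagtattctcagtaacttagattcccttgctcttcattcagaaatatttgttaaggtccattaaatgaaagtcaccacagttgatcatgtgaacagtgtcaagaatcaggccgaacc
BAMBI, chr10:28677271-28677570, plus strand: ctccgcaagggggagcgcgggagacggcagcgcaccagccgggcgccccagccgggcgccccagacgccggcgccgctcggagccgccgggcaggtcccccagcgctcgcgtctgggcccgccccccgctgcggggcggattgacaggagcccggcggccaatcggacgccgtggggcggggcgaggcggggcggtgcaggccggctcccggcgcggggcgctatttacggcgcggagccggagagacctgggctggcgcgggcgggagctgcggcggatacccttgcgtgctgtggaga
SP5, chr2:170715087-170715386, plus strand: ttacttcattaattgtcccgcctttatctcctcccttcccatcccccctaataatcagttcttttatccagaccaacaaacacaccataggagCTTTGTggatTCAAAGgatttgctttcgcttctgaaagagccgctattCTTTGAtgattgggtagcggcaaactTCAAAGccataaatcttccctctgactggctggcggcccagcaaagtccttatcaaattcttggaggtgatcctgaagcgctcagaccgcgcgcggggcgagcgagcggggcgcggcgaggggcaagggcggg

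The GC-rich windows of GSKIP (first start, 74.7% G and C) and BAMBI (80%) held none of these letters, the second GSKIP start (40%) held 2 matches and SP5 (52.3%) held 4. Of 38 windows for the 29 genes found in the RefSeq table, 10 (26.3%) held at least 1 match, and of all 35116 windows of that length 26.2% did. A match is a string of letters in this window and shows no binding.

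The other destruction complex genes differed little. APC, the scaffold that is mutated in many colon tumours, was at 70.5, 65.1 and 73.8 CPM in shJUP 1, 2 and 3, against 62, 53 and 62.8 CPM in shNC 1, 2 and 3 (log2 0.24, SE 0.11). AXIN1, the limiting scaffold, was at 36.3, 34.7 and 37.1 CPM in shJUP, against 29.6, 29.1 and 34.6 CPM in shNC (log2 0.21, SE 0.12). Both lay above each control library by a small margin, and neither was called by edgeR (adjusted p = 0.54 and 0.58) or DESeq2 (0.51 and 0.60). The kinases stood close to 0: GSK3A at log2 -0.09 (SE 0.12), GSK3B at -0.04 (SE 0.12) and CSNK1A1, casein kinase 1 alpha, at 0.00 (SE 0.09). CSNK1A1 was also the steadiest of the group, at 438 to 447 CPM in shJUP and 415 to 458 CPM in shNC. AC021078.1, a transcript on the same strand, covers 37.4% of its exon bases in GENCODE 29.

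BAMBI (ENSG00000095739), a decoy receptor of the TGF-beta family and a reported beta-catenin target, stood at 9.76, 10.3 and 12.5 CPM in shJUP 1, 2 and 3. In shNC 1, 2 and 3 it stood at 5.80, 6.53 and 6.80 CPM. The groups did not overlap, and the difference had nearly the same size in each number (1.68, 1.58 and 1.84 times). BAMBI averaged 10.9 ± 1.5 CPM in shJUP and 6.38 ± 0.52 CPM in shNC (mean ± SD, n = 3 per group), a log2 fold change of 0.77 (SE 0.18, edgeR adjusted p = 0.38). DESeq2 called it (adjusted p = 0.043), but not with the number as a block (0.059) nor without both number-2 libraries (0.10).

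The frizzled receptors and their co-receptors mostly lay slightly lower in shJUP, with 7 of 10 below 0 and a median log2 fold change of -0.22. Without both number-2 libraries, a comparison added after the data were seen, 6 of 10 were below 0 with a median of -0.15, and FZD2 stood at 0.09 in place of -0.25. None was called by edgeR or DESeq2. LRP6, the main co-receptor, was at 50.5, 57.9 and 50.8 CPM in shJUP 1, 2 and 3, against 64.1, 63.7 and 58.7 CPM in shNC 1, 2 and 3. Its groups did not overlap, although shJUP 2 came close to shNC 3 (log2 -0.23, SE 0.11, edgeR adjusted p = 0.54). FZD6, a frizzled receptor, was at 123, 147 and 134 CPM in shJUP against 145, 176 and 150 CPM in shNC (log2 -0.22, SE 0.12). LRP5, the second co-receptor, was at 14.7, 22.4 and 10.7 CPM in shJUP against 15.1, 30.3 and 15.9 CPM in shNC (log2 -0.36, SE 0.35). Both overlapped between groups, and both were lower in shJUP within all 3 numbers.

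The number-2 libraries stood apart for most receptors. For 7 of these 10 genes (LRP5, FZD1, FZD2, FZD3, FZD4, FZD5 and FZD7) both number-2 libraries lay above all other 4, and for none did both lie below. Over the 35 genes this held for 11 above (31.4%) and 4 below (11.4%), against 18.5% and 18.0% of all tested genes. FZD1 shows the pattern, at 31.5, 50 and 28.6 CPM in shJUP 1, 2 and 3 and 34.2, 60.7 and 37.3 CPM in shNC 1, 2 and 3. With the number as a block its standard error fell to 0.09, against 0.29 without it, at the same log2 fold change of -0.26 (edgeR adjusted p = 0.23 with the block). FZD8 departed from its relatives, at 6.37 CPM in shNC 2 and 19.3 to 22.8 CPM in the other 5 libraries, and its log2 fold change was 0.48 (SE 0.39), or 0.11 (SE 0.14) without both number-2 libraries. FZD4 is uncertain, because exons of PRSS23 on the opposite strand cover 18.9% of its exon bases. Other members share exon bases too. On the same strand, AC004687.2 covers 57.6% of RNF43, AC004805.1 covers 25.2% of AXIN2 and AC006486.1 covers 11.6% of GSK3A. On the opposite strand, LTO1 covers 10.3% of CCND1.

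**Figure D2:**
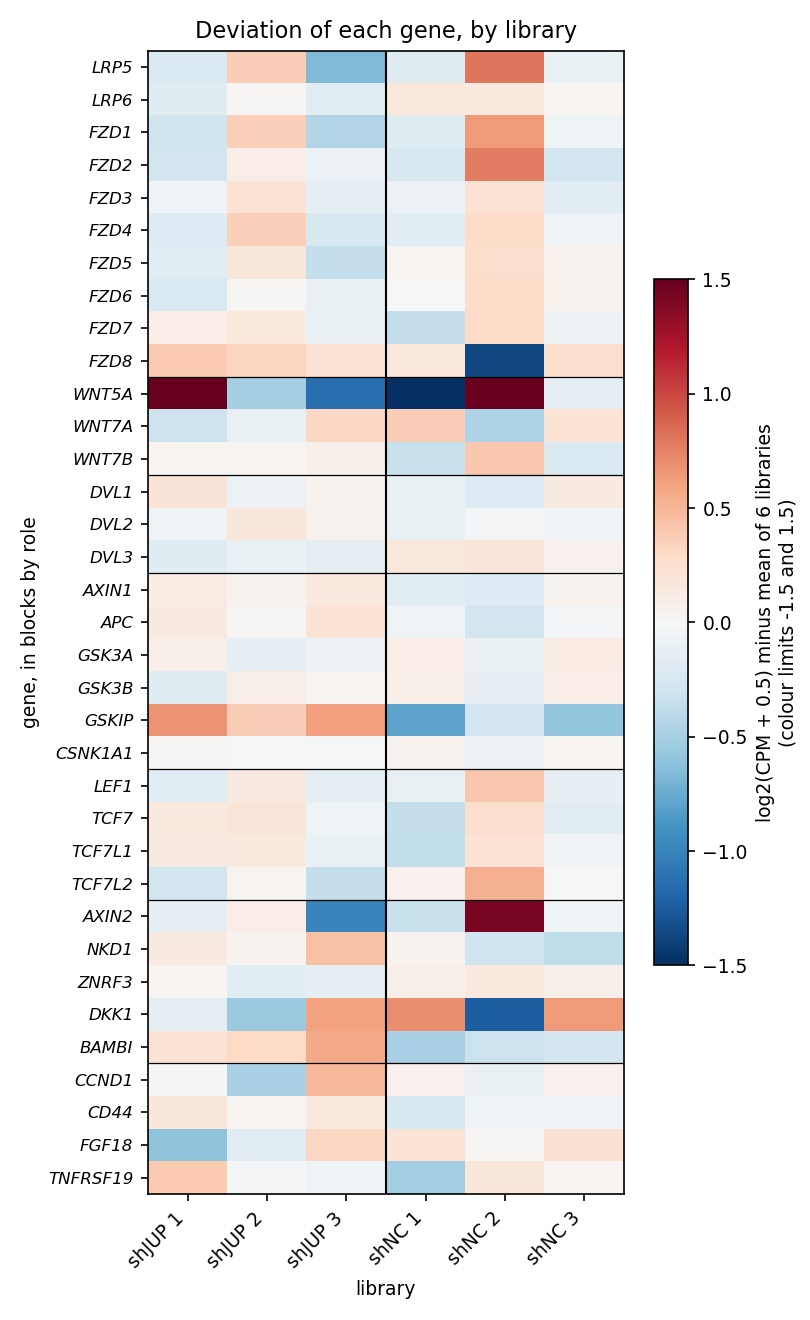
Deviation of each tested gene from its mean over the 6 libraries (colour, log2 of CPM + 0.5, red above and blue below), with shJUP 1 to 3 left of the vertical line and shNC 1 to 3 right of it. GSKIP and BAMBI are red in all shJUP columns, most receptor rows are reddest in shNC 2, and WNT5A is darkest red in shJUP 1 and shNC 2.

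Per length of exon, FZD6 was the most abundant receptor, at 30.3 to 43.3 CPM per kb over the 6 libraries. FZD2 followed at 8.53 to 17.9, and FZD7 at 6.03 to 9.57 CPM per kb overlapped with it. The next receptors in order, FZD1, LRP6 and FZD8, overlapped in level with FZD7 or with each other, and FZD4 had the lowest mean, at 2.04 to 3.13 CPM per kb, overlapping FZD5, LRP5 and FZD3. Of all 42 genes, CCND1 (80.0 to 157 CPM per kb) and CD44 (80.4 to 108) were the most abundant and could not be ordered against each other. Exon length here is the union of all GENCODE 29 exons of a gene, which understates genes with long unused exons.

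**Figure D3:**
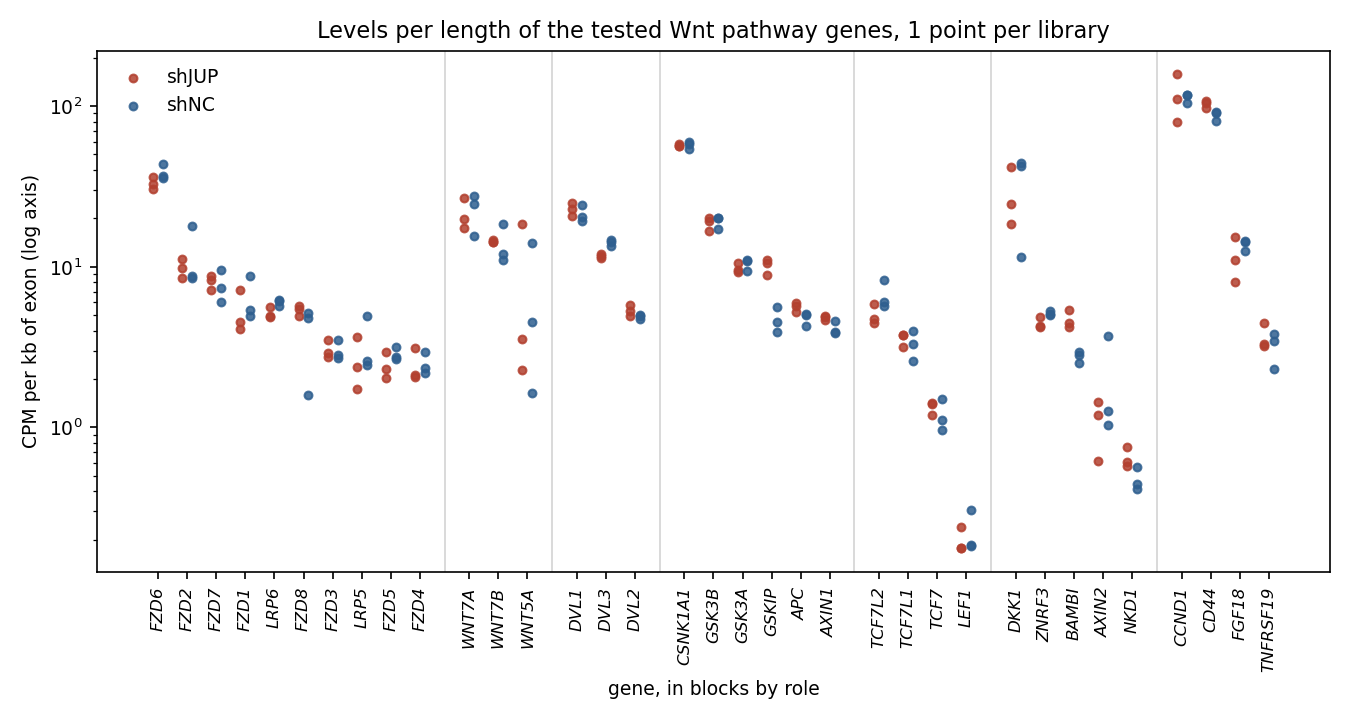
Level of each tested gene per kb of exon (vertical log axis, CPM per kb), 1 point per library, shJUP left of shNC for each gene, in blocks by role in the order receptors, ligands, dishevelled, destruction complex, TCF/LEF factors, feedback inhibitors and other targets. CCND1 and CD44 stand near 100 CPM per kb, and LEF1 is the lowest tested gene at 0.177 to 0.307 CPM per kb.

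Among the ligands, WNT5A, which acts mainly outside the beta-catenin branch, varied widely without regard to group. It was at 137, 26.2 and 16.8 CPM in shJUP 1, 2 and 3, against 12.2, 104 and 33.5 CPM in shNC 1, 2 and 3. The 2 highest libraries, shJUP 1 and shNC 2, belong to different groups and numbers, and the log2 fold change was 0.26 (SE 0.94). It was 1.76 (SE 0.91, edgeR adjusted p = 0.37) without both number-2 libraries and -0.10 in the edgeR fit with the number as a block. The summed level of 6 fibroblast marker genes was also highest in those libraries, at 263, 46.6 and 11.0 CPM in shJUP 1, 2 and 3 and 43.4, 451 and 60.5 CPM in shNC 1, 2 and 3. Most of that sum was COL1A1, at 253 CPM in shJUP 1. DCN and LUM did not share the pattern: they stood at 0.614 and 1.23 CPM in shJUP 1 but at 5.87 and 6.67 CPM in shJUP 2, and both number-2 libraries were their highest. PDGFRB and THY1 stayed under 1 CPM in every library and 4 of the 6 reached 1 CPM in any. The part of these markers in the WNT5A level was not tested. In bulk RNA, fewer cells of a type and less RNA per cell cannot be told apart. The 2 WNT7 ligands, which are often produced by epithelia, were more even. WNT7A was at 79.5, 91 and 123 CPM in shJUP against 127, 71.1 and 113 CPM in shNC (log2 -0.09, SE 0.25). WNT7B was at 71.9, 72.4 and 74.2 CPM in shJUP against 55.8, 93.7 and 60.5 CPM in shNC (log2 0.06, SE 0.20), so the shJUP libraries sat within the range of the controls. Without both number-2 libraries its log2 fold change was 0.34 (SE 0.11, edgeR adjusted p = 0.20).

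The dishevelled genes relay the signal from frizzled receptors. DVL3 (ENSG00000161202) was at 72.3, 76.2 and 74.7 CPM in shJUP 1, 2 and 3, against 91.2, 93.1 and 85.7 CPM in shNC 1, 2 and 3. Each shJUP library was lower than each control, and the means were 74.4 ± 2.0 CPM in shJUP and 90 ± 3.8 CPM in shNC (mean ± SD, n = 3 per group). The log2 fold change of -0.27 (SE 0.09) had an unadjusted edgeR p of 0.020 and did not pass after adjustment (0.44 by edgeR, 0.23 by DESeq2). DVL1 (log2 0.11, SE 0.13) and DVL2 (0.12, SE 0.12) lay about 1 standard error or less above 0.

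Of the TCF/LEF factors, which carry beta-catenin to DNA, TCF7L2 was the most abundant per length at 4.46 to 8.31 CPM per kb. TCF7L2 was at 31.9, 39.7 and 30.1 CPM in shJUP 1, 2 and 3, against 40.4, 56 and 38.5 CPM in shNC 1, 2 and 3. It was lower in shJUP within each number, by similar ratios of 0.789, 0.710 and 0.781, although shJUP 2 overlapped the controls. Its log2 fold change was -0.41 (SE 0.18, edgeR adjusted p = 0.52), and -0.40 (SE 0.09, edgeR adjusted p = 0.12) with the number as a block. LEF1 had 17 to 24 counts in shJUP and 18 to 31 counts in shNC, which is close to the filter on low counts (log2 -0.18, SE 0.35). TCF7 (0.16, SE 0.20) and TCF7L1 (0.12, SE 0.19) were higher in shJUP within number 1 by 1.45 and 1.44 times, and near or below 1 time within number 2, at 0.941 and 0.952.

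AXIN2 (ENSG00000168646), a scaffold paralogous to AXIN1 and the most widely used transcript readout of beta-catenin activity, had the lowest log2 fold change of the 35. It was at 6.25, 7.47 and 3.24 CPM in shJUP 1, 2 and 3, against 5.42, 19.4 and 6.64 CPM in shNC 1, 2 and 3. The groups overlapped, and a single control library, shNC 2, was well above the other 5. The means were 5.65 ± 2.2 CPM in shJUP and 10.5 ± 7.8 CPM in shNC (mean ± SD, n = 3 per group), a log2 fold change of -0.89 (SE 0.54, edgeR adjusted p = 0.61). Without shNC 2 the log2 fold change was -0.09, and without both number-2 libraries it was -0.34 (SE 0.34). Within numbers 1, 2 and 3 the shJUP level was 1.15, 0.384 and 0.488 times the shNC level, so number 1 went the other way. Both the fibroblast marker sum (451 CPM) and the summed ovarian carcinoma markers (8230 CPM, against 3630 to 5940 CPM in the other libraries) were highest in shNC 2 too. Most of the ovarian sum in shNC 2 was ERBB2, at 6910 CPM. The ovarian markers did not move as a class: KRT19 (220 CPM) and EPCAM (4.62 CPM) were also highest in shNC 2. KRT8 (494 CPM) and PAX8 (253 CPM) were lowest there, and KRT7 was highest in shNC 1 (231 CPM). In shJUP 1, where the fibroblast sum was second highest at 263 CPM, AXIN2 was at 6.25 CPM. The part of either list in the AXIN2 level was not tested.

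DKK1, a secreted antagonist that binds LRP5 and LRP6, was at 54.2, 40.6 and 92 CPM in shJUP 1, 2 and 3, against 97.9, 25.2 and 93.7 CPM in shNC 1, 2 and 3. Both number-2 libraries were the lowest of the 6, while AXIN2 was highest there. Its log2 fold change was -0.21 (SE 0.51, edgeR adjusted p = 0.91), and -0.38 (SE 0.23) without both number-2 libraries. NKD1, an inhibitor that binds dishevelled, was at 10.6, 9.98 and 13.2 CPM in shJUP against 9.95, 7.70 and 7.24 CPM in shNC (log2 0.44, SE 0.20). Its groups touched, with 9.98 CPM in the lowest shJUP library and 9.95 CPM in the highest control, and it was not called (edgeR adjusted p = 0.53). ZNRF3, a ubiquitin ligase that removes frizzled from the membrane, was at 33.9, 29.4 and 30 CPM in shJUP against 35.3, 36.8 and 35 CPM in shNC (log2 -0.20, SE 0.11).

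The remaining feedback genes were barely detected. NKD2, NOTUM, APCDD1, RNF43 and the stem cell receptor LGR5, with the targets SP5 and PROX1, made up the 7 genes that failed the filter, with at most 26 counts in any library. RNF43, the partner of ZNRF3, had 0 or 1 count in each library, and PROX1 likewise. NOTUM, a secreted enzyme that inactivates Wnt ligands, had 1, 15 and 7 counts in shJUP against 6, 11 and 6 counts in shNC. SP5 had 9, 4 and 8 counts in shJUP against 8, 0 and 6 counts in shNC. APCDD1 had 6, 8 and 8 counts in shJUP against 6, 26 and 11 counts in shNC. The main fit did not test these 7 genes, and no difference is read from counts this low.

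Of the other targets, CCND1 and CD44 were abundant, FGF18 and TNFRSF19 were not, and none was called. CCND1, which encodes cyclin D1, was at 533, 386 and 760 CPM in shJUP 1, 2 and 3, against 567, 506 and 569 CPM in shNC 1, 2 and 3. The shJUP libraries spread to both sides of the controls, with means of 560 ± 190 CPM in shJUP and 548 ± 36 CPM in shNC (mean ± SD, n = 3 per group; log2 0.03, SE 0.23). CD44, the hyaluronan receptor, was at 1080, 980 and 1050 CPM in shJUP against 804, 908 and 922 CPM in shNC. It did not overlap between groups, and its log2 fold change of 0.24 (SE 0.10) was not called (edgeR adjusted p = 0.50, DESeq2 0.35). FGF18 (log2 -0.26, SE 0.23) and TNFRSF19 (0.20, SE 0.23), a receptor of the TNF family, differed by about their standard errors, and TNFRSF19 was 1.93 times as high in shJUP as in shNC within number 1 but 0.872 and 0.925 times within numbers 2 and 3.

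**Figure D4:**
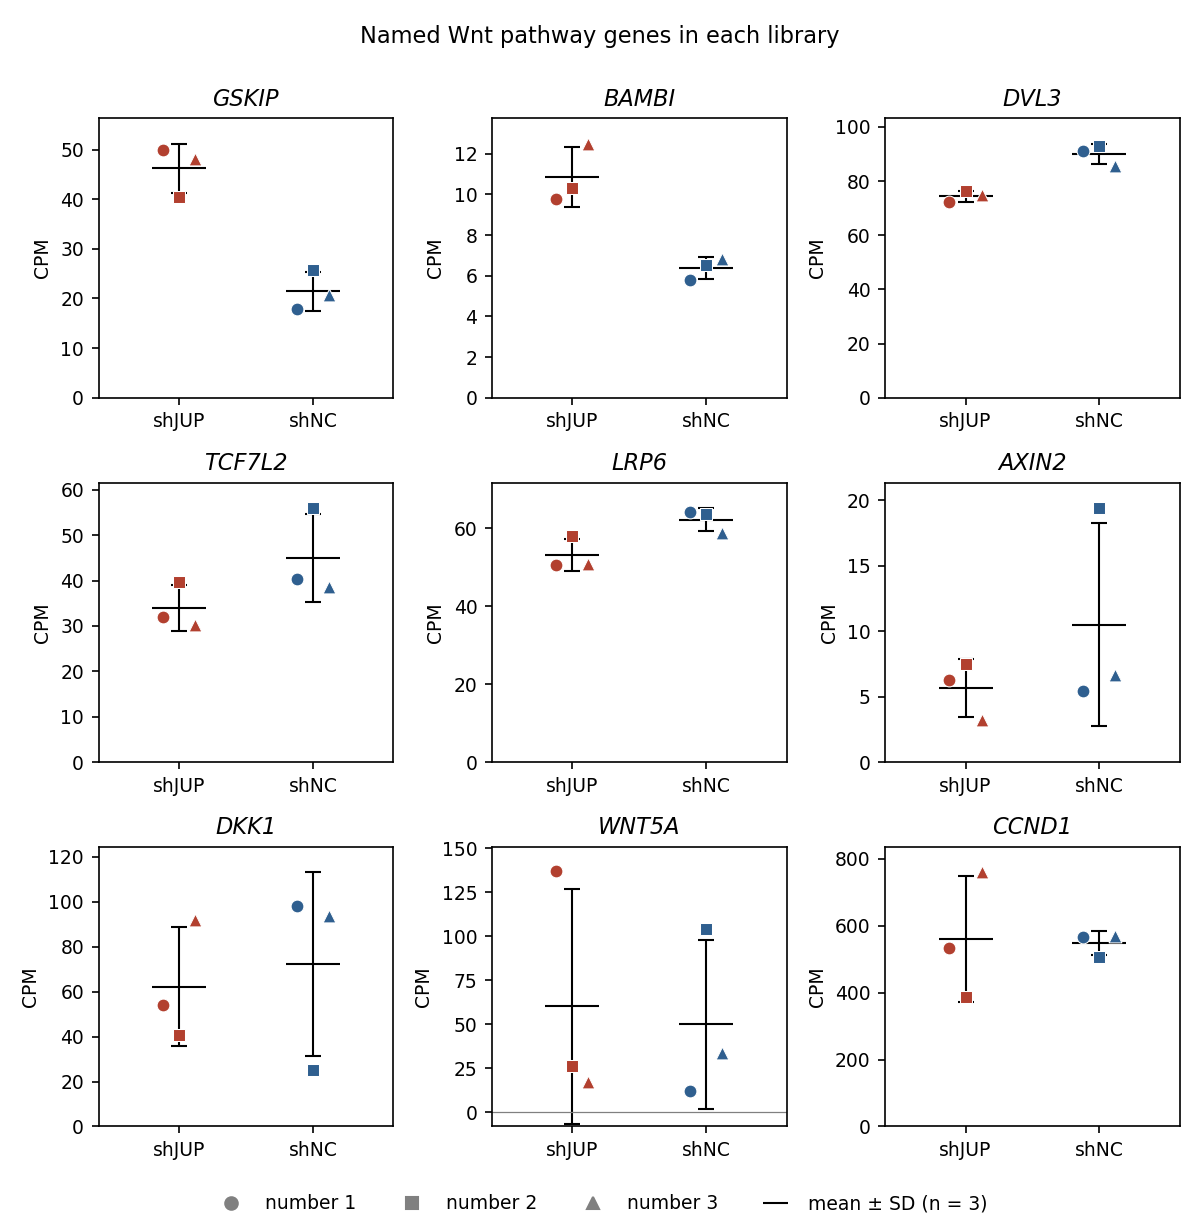
CPM of 9 genes in each library (vertical axis, 1 panel per gene), shJUP left and shNC right, with the library number as the symbol and black marks for the mean ± SD (n = 3; the lower WNT5A bar of shJUP runs below 0). GSKIP, BAMBI, DVL3 and LRP6 separate by group, whereas AXIN2 is set apart by shNC 2 at 19.4 CPM, and WNT5A by shJUP 1 at 137 CPM and shNC 2 at 104 CPM.

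With the number as a block the count among the 35 did not grow. edgeR called 0 (1 of all genes, 0.0063%) and DESeq2 called 1 of 34, GSKIP (2.94%, against a background of 5.58%, of which 2.48% higher and 3.1% lower). At an unadjusted p under 0.05 the blocked edgeR fit held 9 of 35 (25.7%), against 19.2% of all genes (9.09% higher and 10.1% lower). Those were GSKIP, BAMBI and APC, higher, and LRP5, LRP6, FZD1, FZD6, DVL3 and TCF7L2, lower. The direction was the same within all 3 numbers for 17 of 35 (48.6%, background 43.8%). Lower levels in shJUP within all 3 numbers were seen for 10 of 35 (28.6%, background 22.5%) and higher levels for 7 (20.0%, background 21.3%).

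A second list held 84 further genes of the pathway, of which 55 were tested. edgeR called 0 of the 55, and limma-voom called 0. An unadjusted edgeR p under 0.05 was seen for 7 (12.7%, against 10% of all tested genes). DESeq2 called 1 of 48 (2.08%, against 1.56% of all genes), BIRC5, which encodes the apoptosis inhibitor survivin, at 159 ± 19 CPM in shJUP and 110 ± 8.7 CPM in shNC (mean ± SD, n = 3 per group; log2 0.52, SE 0.13, DESeq2 adjusted p = 0.030). The transcript of beta-catenin itself, CTNNB1, was at 341, 310 and 281 CPM in shJUP 1, 2 and 3, against 249, 291 and 280 CPM in shNC 1, 2 and 3 (log2 0.19, SE 0.12). The groups overlapped between shJUP 3 and shNC 2. MYC, a classical target, averaged 103 ± 17 CPM in shJUP and 95.5 ± 1.3 CPM in shNC (log2 0.11, SE 0.13).

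The further genes with the smallest p-values had different roles. PORCN, the enzyme that lipidates Wnt ligands, was at 27.3, 38.4 and 25.5 CPM in shJUP against 49.3, 49.1 and 36.5 CPM in shNC (log2 -0.56, SE 0.20). RYK, a Wnt receptor with an inactive kinase domain, was at 130, 142 and 119 CPM in shJUP against 151, 178 and 160 CPM in shNC (log2 -0.33, SE 0.12). PYGO2, a nuclear cofactor of beta-catenin, had a log2 fold change of -0.36 (SE 0.12), and FRAT2, a GSK3-binding protein, -0.57 (SE 0.25). NRCAM, an adhesion molecule and reported target, was at -0.45 (SE 0.17). CSNK1G1, casein kinase 1 gamma 1, was at 0.47 (SE 0.13) and FOSL1, an AP-1 factor and reported target, at 1.02 (SE 0.32).

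DESeq2 with the number as a block called 6 of 49 in this second list (12.2%, background 5.58%). BIRC5 and FOSL1 were higher, and PORCN, NRCAM, SOX4 and MMP7 were lower. SOX4 and MMP7 fall outside the rule for named genes and were singled out after their values were seen. SOX4, a transcription factor and reported target, was at 40.6, 140 and 50.8 CPM in shJUP 1, 2 and 3, against 104, 318 and 124 CPM in shNC 1, 2 and 3. MMP7, the matrix protease matrilysin and a reported target, was at 0.502, 15.9 and 0.956 CPM in shJUP, against 3.98, 106 and 5.28 CPM in shNC. Both were highest in number 2 within each group, as AXIN2 was, and both were lower in shJUP within every number. SOX4 had a log2 fold change of -1.24 (SE 0.58, edgeR adjusted p = 0.54), and -1.28 (SE 0.09, 0.058) in the blocked edgeR fit. MMP7 had -2.73 (SE 1.57, edgeR adjusted p = 0.60), and -2.71 (SE 0.14, 0.034) in the blocked fit, where it was the 1 gene called of all. Without both number-2 libraries the edgeR calls changed places: SOX4 passed (-1.31, adjusted p = 0.048) and MMP7 did not (-2.64, adjusted p = 0.064).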

How the data were processed

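RNA of 6 SKOV3 cultures (3 shJUP, 3 shNC) was enriched with oligo(dT) beads and sequenced on a DNBSEQ instrument, per the labels' protocols. The table deposited by the authors holds estimated counts per Ensembl gene with no scaling between libraries, as read from its values (33.9 to 36.3% of the values above 0 in a library are not whole, and totals differ). The protocols mention FPKM from Cuffdiff, which these values are not. The submitters' processing notes name STAR 2.7.9a, RSEM 1.3.3, edgeR 3.32.1 and DESeq2 1.26.0 without saying which step each served. Genome build, annotation release and counting strand: not given in the sources used here. The table has 60695 rows, and 31 without a gene ID (text cells) were dropped. Of the other 60664 IDs, 60463 matched a symbol.

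Counts were rounded and tested with edgeR 4.0.16 in R 4.3.3 (filterByExpr, TMM, quasi-likelihood, two-sided, Benjamini-Hochberg over 15867 genes, threshold 0.05). Standard errors were derived from the fold change and its F statistic. Levels are CPM after TMM, and the SD over libraries holds counting error as well as the spread between cultures. DESeq2 1.42.0 and limma-voom 3.58.1 ran on the same filtered genes. The steps were tested on simulated data. Replicates differed beyond sampling noise (chi-square per gene 10 to 61.2). Same-numbered libraries correlated in their deviations at 0.14, 0.51 and 0.20, each over the limit of 0.1 set for pairs. Libraries of numbers 1 and 3 also passed that limit across numbers (0.39 and 0.15), so it does not show pairs by number there. What a number marks (a day, a batch) is not in the labels.

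The members and lists were chosen with earlier results of these data known. Values in every library were set to be given for AXIN2, GSKIP, LRP6, LEF1, TCF7L2, CCND1 and DKK1, for members with an unadjusted edgeR p under 0.05 and for those called by DESeq2. Of the second list, CTNNB1, MYC and the 8 with the smallest p were named. Other members' library values were added for description after they were seen.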

Additional observations from a re-analysis of the deposited data

How the results depend on the processing

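The fits were repeated under 17 alternatives. The count of all genes called, 0 with edgeR, was 5 with no filter, 204 with DESeq2, 1 with the replicate block in edgeR, 696 with that block in DESeq2, and 49 (edgeR) and 678 (DESeq2) without both number-2 libraries. The count among the 42 Wnt genes, 0 with edgeR, was 2 with DESeq2, 1 with the replicate block in DESeq2, and 1 without both number-2 libraries in either tool. Among the second list it was 1 with DESeq2, 1 with the replicate block in edgeR and 6 with it in DESeq2, and 1 (edgeR) and 6 (DESeq2) without both number-2 libraries. With the block in edgeR that was 1.82% of 55, against 0.0063% of all genes. Without both number-2 libraries it was 1.85% of 54 with edgeR, against 0.308% of all genes. With DESeq2 it was 12.2% of 49, against 5.16% of all genes. For JUP, DESeq2 gave -1.30 (adjusted p = 0.043) with the replicate block and, once both number-2 libraries were left out, -1.66 (2.4e-10), both past the threshold. The median log2 fold change of the Wnt genes was -0.05 to 0.10 with 1 library left out, highest without shNC 2.

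GSKIP stayed higher in all 18 settings (0.99 to 1.36) and passed in 4, with adjusted p-values from 1.8e-10 to 0.88. BAMBI stayed higher (0.65 to 0.84) and passed in 1. AXIN2 stayed lower (-1.20 to -0.09) and passed in none. Of the 35 tested genes, 14 turned direction in at least 1 setting, none of them called there, and 21 in none. Directions were compared after rounding, so CSNK1A1, at 0.00 in the main fit, could not be counted as turning. It is among the 21, with a range of -0.04 to 0.03. The widest range was that of WNT5A (-1.21 to 1.76), which was -0.10 with the replicate block in edgeR. LRP5 and FZD1 each turned only without shNC 2 (0.04 for both). Among the genes named by rule those that turned were CCND1, at -0.02 with limma-voom, -0.02 with the replicate block in edgeR and -0.02 with it in DESeq2, and -0.25 to 0.24 with 1 library left out, and, also with 1 library left out, DKK1 (-0.62 to 0.07), LEF1 (-0.34 to 0.10) and MYC (-0.04 to 0.18). The cause was not tested. Depth limits the 7 genes under the filter, for which no fold change was fitted.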
